A study of Homo sapiens with 4 samples.

Results

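The replication-dependent histone genes were taken as every gene of the deposited table whose symbol begins with HIST1H, HIST2H, HIST3H or HIST4H. This gave 73 of the 23615 genes in the table: 6 of the linker histone H1 and 18, 20, 14 and 15 of the core histones H2A, H2B, H3 and H4. By chromosomal cluster, 56 belong to HIST1, 13 to HIST2, 3 to HIST3 and 1 to HIST4. The rule goes by symbol alone. It also takes in pseudogenes, such as HIST1H2APS1 and HIST2H2BC, and testis genes, such as HIST1H1T, and none of these was set aside. The study compared K562 cells, an established human erythroleukaemia line, after 3 h with 5 µM clofarabine in 0.005% DMSO or after 3 h with DMSO, each with 2 RNA-seq libraries. Clofarabine is a purine nucleoside analogue that blocks ribonucleotide reductase and DNA polymerases. No genetic change was made in either group, and the cells were not sorted or synchronised as far as the labels say.

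The table calls its conditions C and V, read here as clofarabine and vehicle. No label spells the letters out, and every direction below would reverse under the opposite reading. The clofarabine libraries, C0 and C1 by the letters and numbers of the table, held 13175630 and 23888755 fragments, and the DMSO libraries, V0 and V1, held 8370550 and 11119379. Since no label tells whether a group's samples were grown as separate cultures, the p-values below cover the spread among these 4 samples, which may be technical. Levels are given as CPM, fragments scaled to a common library total. Of 12 genes that mark K562 all were tested, and 2 fell and none rose. Of all genes tested, 1.03% were called lower and 1.54% higher. The 2 are NFE2 and GATA1, with log2 fold changes of -0.37 and -0.25 (edgeR adjusted p = 0.00196 and 0.0445). Without C0 1 fell and 1 rose, 3 fell without C1, and 1 fell without V0 or without V1. The embryonic globin HBE1 was at 13190 to 16020 CPM. Of 10 markers of other cell types, 3 were tested and none was called. MS4A1 and KRT5 had no fragment, and the summed level of all 10 ran from 146.9 to 161.6 CPM, nearly all of it from KRT19 at 143.4 to 157.7 CPM. In bulk RNA, fewer cells in S phase and less histone RNA per cell cannot be told apart.

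Replication-dependent histones supply the nucleosomes that package newly copied DNA, and their messages are made mainly in S phase. Transcription is driven at the clusters by NPAT, a substrate of cyclin E and CDK2. Most of these messages end not in a poly(A) tail but in a short conserved stem-loop, which is bound by the stem-loop binding protein SLBP and is needed for 3′ end processing, translation and decay. When DNA synthesis stops, the stem-loop messages are normally degraded quickly. Some members also give longer, polyadenylated messages from the same gene. The sources used here do not tell whether poly(A) selection or ribosomal RNA depletion preceded the libraries, and this bears on how far the levels below represent each form.

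The stem-loop is shown because it is the feature that sets these messages apart from other messages. A fixed pattern of letters was searched on the transcript strand of the GENCODE release 29 models. It spells a stem of 6 base pairs around a loop of 4 bases, with a choice of letters at a few positions only. The pattern was found in 25 of the 73 members, and any other stem or loop would be missed. Models of the other 48 members do not hold it, which says nothing about their messages. Many models end at the stop codon, but some are long, as that of HIST1H3G with 2411 bases. The forms below are limited to those the pattern allows. Capitals mark the 2 arms of the stem and lower case the loop.

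H2A, H2B and H3 form, 17 members: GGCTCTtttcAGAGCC
H4 form, 5 members: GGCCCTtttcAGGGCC
HIST1H2AG and HIST2H2BC: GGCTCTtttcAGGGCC
HIST1H3E: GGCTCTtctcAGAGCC

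All 5 members with the second form are H4 genes, namely HIST1H4B, HIST1H4E, HIST1H4H, HIST1H4J and HIST4H4. The first form was found in H2A, H2B and H3 genes, among them HIST1H2AC and HIST2H2BE. Both of these are also on the list of members known to give polyadenylated messages.

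Promoters were taken from RefSeq (GRCh38.p14) for 60 of the 73 members, with 64 start sites, and 4 motifs were searched on both strands in the 250 bases before each start. The TATA element TATAAA was in 67.2% of member promoters, against 10.7% of all 35116 promoters in the table. The CCAAT element was in 84.4% of member promoters against 32.0% of all. It was in every H1, H2A, H2B and H3 promoter and in 3 of 13 of the H4 promoters. The octamer ATTTGCAT, the element bound by POU2F1, was in 11 of 16 H2A and 10 of 15 H2B promoters. It was in 1 of 14 H3 promoters and in none of the H1 and H4 promoters, against 1.63% of all. That H3 promoter is a start of HIST1H3D at chr6:26199294-26199413, the same stretch as the promoter of the H2A gene HIST1H2AD. GGTCCG, part of the H4 subtype element, was in 12 of 13 H4 promoters and in 3 of the other member promoters, against 9.43% of all. Where 2 genes lie head to head the stretches searched can overlap. The same bases then count for both genes, as in HIST2H2AC and HIST2H2BE.

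The 120 bases before the start are shown for 3 members that fell with clofarabine and for 1 H4 member that was not called. The 3 are an H2A, an H2B and an H3 promoter and the last is an H4 promoter, and they need not be typical of their class. GGTCCG was in 1 of 15 H2B promoters, which is that of HIST2H2BE. The octamer of HIST1H2AC lies outside the bases shown. Capitals mark the motifs on either strand, so that ATTGG is CCAAT read from the other strand and TTTATA is TATAAA. The stretches lie at chr6:26124052-26124171 on the plus strand (HIST1H2AC), chr1:149886683-149886802 on the minus strand (HIST2H2BE), chr6:26197287-26197406 on the minus strand (HIST1H3D, 1 of its 2 starts) and chr6:26285535-26285654 on the minus strand (HIST1H4H).

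HIST1H2AC: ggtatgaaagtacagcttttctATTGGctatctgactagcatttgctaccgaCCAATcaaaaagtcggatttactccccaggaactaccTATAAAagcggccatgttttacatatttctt
HIST2H2BE: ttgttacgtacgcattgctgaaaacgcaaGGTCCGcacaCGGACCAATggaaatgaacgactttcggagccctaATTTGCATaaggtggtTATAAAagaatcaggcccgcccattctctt
HIST1H3D: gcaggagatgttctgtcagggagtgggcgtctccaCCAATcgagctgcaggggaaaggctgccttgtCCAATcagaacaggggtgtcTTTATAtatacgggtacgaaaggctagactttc
HIST1H4H: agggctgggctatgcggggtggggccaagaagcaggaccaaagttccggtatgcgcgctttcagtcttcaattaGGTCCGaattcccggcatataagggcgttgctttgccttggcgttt

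The HIST2H2BE stretch holds all 4 motifs, with GGTCCG on the other strand overlapping CCAAT in the run CGGACCAAT. HIST1H4C had no entry in the promoter table. A match is a description of these letters and not a measured site.

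Of the 73 members, 42 had 10 or more fragments over the 4 libraries together and 24 had 10 or more in every library. A further 13 had some fragments but fewer than 10, and 18 had none in any library. The 42 comprised 4 H1, 12 H2A, 14 H2B, 4 H3 and 8 H4 genes. The 18 without a fragment included the H1 gene HIST1H1A and HIST4H4, the only member of its cluster. A count of 0 allows a level of up to 3 fragments, which is 0.13 to 0.353 CPM in these libraries, counting error only. Of the 18, 5 share more than 50% of their 50-base words with another histone gene (HIST1H2AJ, HIST2H3A, HIST2H3C, HIST2H4A and HIST2H4B), and 12 share none. Here and below, words were compared among annotated transcripts of histone genes only. Whether the handling of fragments from copies has a part in these zeros was not tested.

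Member levels were very uneven. The linker histone gene HIST1H1C and the H2B gene HIST1H2BK together held 85.4%, 85.9%, 83.1% and 83.5% of all member fragments in C0, C1, V0 and V1. Per length, HIST1H1C averaged 1500 FPKM with clofarabine and 1630 with DMSO, and HIST1H2BK 957 and 1100 FPKM. HIST1H2AC, the next, averaged 137 and 188 FPKM, and HIST3H2A, from the HIST3 cluster, 88.7 and 107 FPKM. The other tested members were lower still, down to the H1 genes HIST1H1D, at 1.31 FPKM with clofarabine and 1.95 with DMSO, and HIST1H1B, at 1.71 and 1.67 FPKM. All members together made up 0.161% and 0.172% of the fragments in C0 and C1 and 0.194% and 0.196% in V0 and V1.

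**Figure D1:**
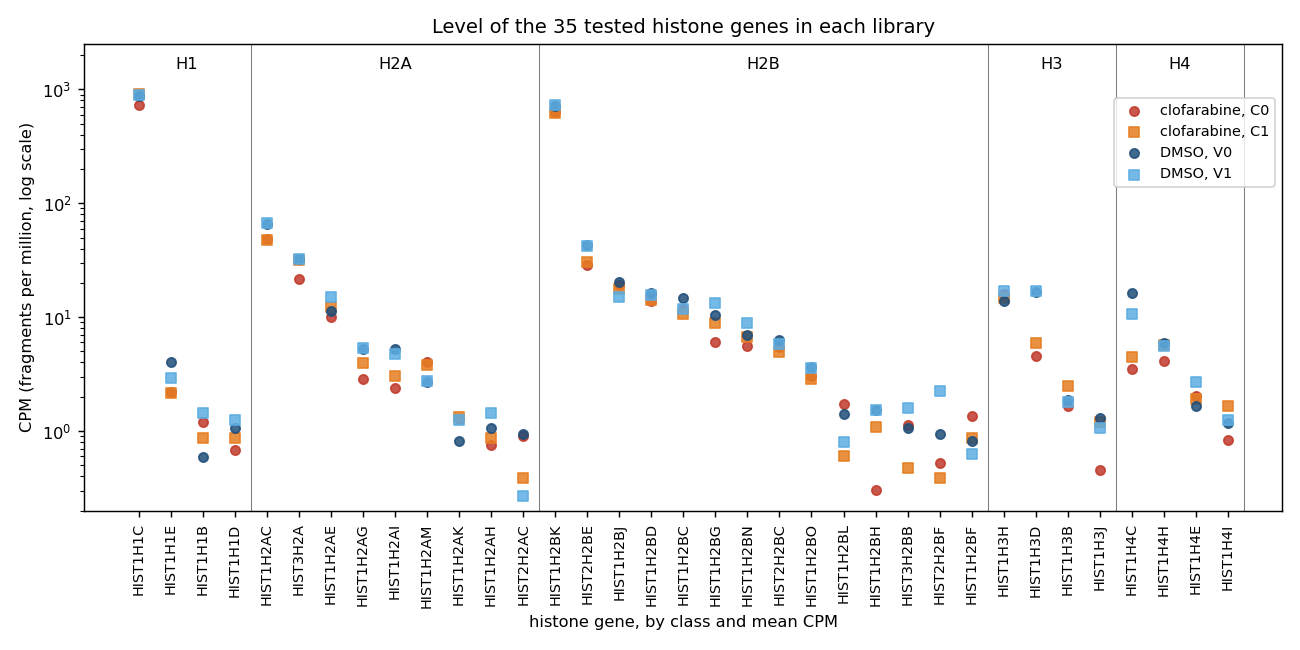
Level of each of the 35 tested histone members in each library, as CPM on a log axis, grouped by histone class, with DMSO libraries in blues and clofarabine libraries in red and orange. HIST1H1C and HIST1H2BK stand above all others, and in HIST1H3D both DMSO libraries (16.7 and 16.9 CPM) lie clear of both clofarabine libraries (4.60 and 5.97 CPM).

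The question of which members changed with clofarabine was put to the quasi-likelihood test of edgeR, run over the 11761 genes that passed its filter on low counts, 35 members among them. With an adjusted p under 0.05, 4 of 35 members were called lower (11.4%), where 1.03% of all genes tested were called lower. None was called higher, where 1.54% of all genes were, and at an unadjusted p under 0.05 the members counted 9 lower (25.7%, against 6.06% of all genes) and 0 higher (against 8.17%). The fitted log2 fold change was below 0 in 27 of 35 members (77.1%), against 49.4% of all genes, and its median was -0.24 over the members and 0.0020 over all genes. Both clofarabine libraries were below both DMSO libraries in 19 members (54.3%), against 21.3% of all genes, and above both in 3 members (8.57%), against 22% of all genes. The members that fell were HIST1H4C, HIST1H3D, HIST2H2BE and HIST1H2AC.

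HIST1H4C, which encodes histone H4, had 47 and 104 fragments in C0 and C1 and 138 and 119 in V0 and V1. These are 3.54 and 4.50 CPM with clofarabine and 16.2 and 10.6 CPM with DMSO, so the groups do not overlap and the DMSO libraries are the more spread. The mean was 4.02 ± 0.677 CPM against 13.4 ± 3.98 (SD, n = 2 each), and HIST1H4C fell by 1.69 on the log2 scale (SE 0.228, edgeR adjusted p = 7.91e-05), 3.24-fold.

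HIST1H3D encodes histone H3. Its level was 4.60 and 5.97 CPM in C0 and C1 and 16.7 and 16.9 CPM in V0 and V1, so the groups do not overlap. HIST1H3D fell by 1.64 on the log2 scale (SE 0.18, edgeR adjusted p = 4.39e-06), 3.12-fold. An annotated transcript on the same strand runs across HIST1H3D and the H2A gene HIST1H2AD, and their fragments are fractional, so the split between them is uncertain. With the 2 genes summed, the fall was 1.61 (edgeR adjusted p = 3.04e-06). HIST1H2AD itself had 9.24, 0.00, 7.25 and 2.46 fragments in C0, C1, V0 and V1 and did not pass the filter.

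HIST2H2BE encodes histone H2B and lies in the HIST2 cluster. Its level was 28.5 and 30.4 CPM with clofarabine and 43.3 and 41.9 CPM with DMSO, with both DMSO libraries above both clofarabine libraries. HIST2H2BE fell by 0.53 on the log2 scale (SE 0.102, edgeR adjusted p = 0.00441), 1.44-fold. On log2(FPKM + 1) with limma the adjusted p was 0.0501, just above the threshold of 0.05.

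HIST1H2AC encodes histone H2A. Its level was 49.0 and 48.0 CPM in C0 and C1 and 66.3 and 66.7 CPM in V0 and V1, and the groups do not overlap. HIST1H2AC fell by 0.46 on the log2 scale (SE 0.0838, edgeR adjusted p = 0.0026), 1.37-fold.

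**Figure D2:**
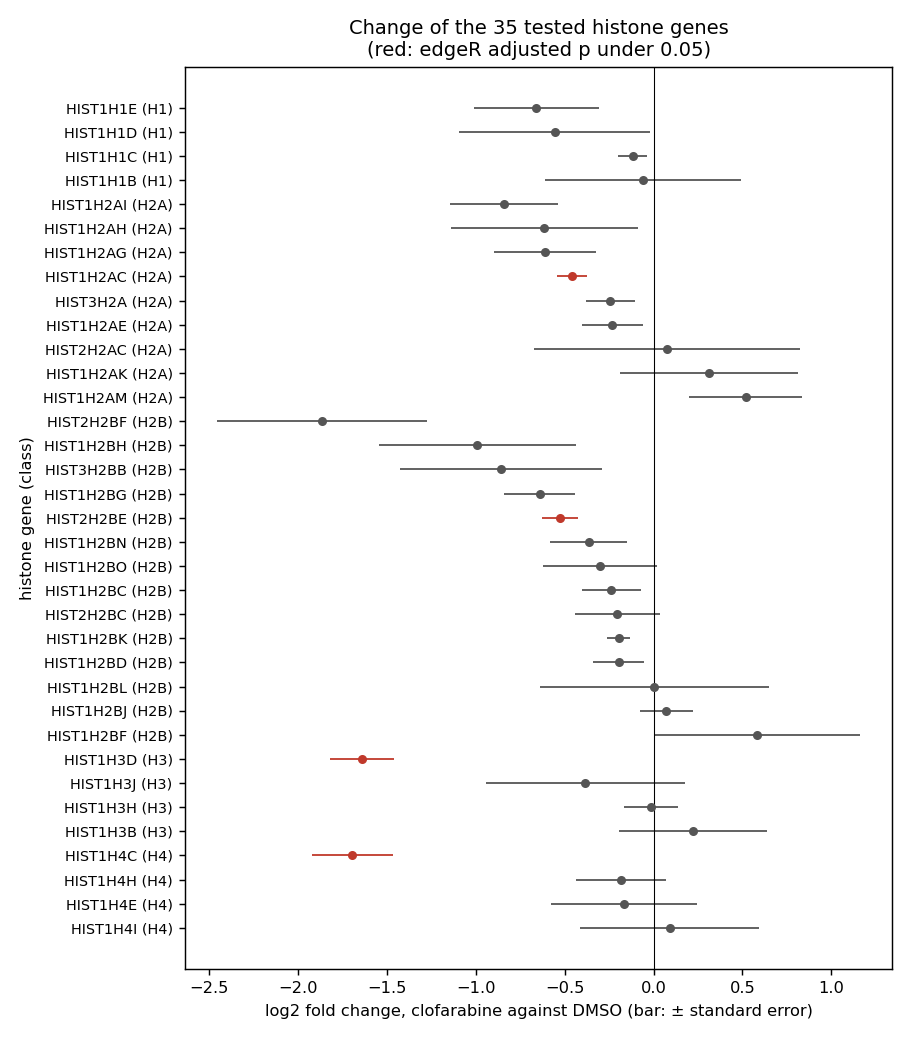
Log2 fold change with clofarabine against DMSO for the 35 tested histone members, with standard errors as bars, grouped by class and with called genes in red. HIST1H4C and HIST1H3D lie near -1.69 and -1.64, HIST2H2BE and HIST1H2AC near -0.53 and -0.46, and HIST2H2BF, at -1.86 with the widest bar among the low values, was not called.

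Of the H1 genes, none of the 4 tested was called, and the class median was -0.34. HIST1H1C, the most abundant of all members, had 735.1 and 903.2 CPM in the clofarabine libraries C0 and C1 and 878.1 and 900.4 CPM in the DMSO libraries, so C0 alone is low and the groups overlap. Its log2 fold change was -0.12 (SE 0.0812, edgeR adjusted p = 0.581), and leaving out C1 gave -0.28 (adjusted p = 0.00117) while leaving out C0 gave 0.023. HIST1H1E had 2.19 and 2.16 CPM with clofarabine and 4.004 and 2.94 CPM with DMSO, a log2 fold change of -0.66 that was not called (edgeR adjusted p = 0.421). HIST1H1B lay between 0.589 and 1.43 CPM in all libraries, with groups that overlap.

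Of 9 tested H2A genes only HIST1H2AC was called, and 6 had a negative log2 fold change, with a median of -0.24. HIST3H2A had 21.8 and 31.9 CPM with clofarabine and 32.1 and 32.4 CPM with DMSO, and again C0 alone is low. Its log2 fold change was -0.24 (SE 0.14, edgeR adjusted p = 0.474), and -0.57 without C1 (adjusted p = 0.00724). HIST1H2AE had 10.1 and 12.2 CPM with clofarabine and 11.3 and 14.99 CPM with DMSO, and the groups overlap. HIST1H2AM went the other way, with 4.07 and 3.81 CPM against 2.71 and 2.77 CPM and a log2 fold change of 0.52 that was not called (edgeR adjusted p = 0.509). Of the tested members, 3 share more than 50% of the 50-base words of their annotated model with other genes: HIST1H2AM (86.3%), HIST1H2BK (74.1%, with 9 genes) and HIST1H2AI (62.3%). The model of HIST1H2BK is 381 bases long, and the annotation behind the counts is not named. These shares can therefore differ for the models that were counted. How fragments were divided among such genes is uncertain.

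Of 14 tested H2B genes only HIST2H2BE was called, and 11 had a negative log2 fold change, with a median of -0.27. HIST1H2BK, the second most abundant member, had 628.2 and 624.6 CPM with clofarabine and 712.5 and 723.1 CPM with DMSO. The means, 626.4 ± 2.58 and 717.8 ± 7.5 CPM (SD, n = 2 each), differ by far more than the spread, yet HIST1H2BK was not called (log2 fold change -0.20, SE 0.0661, edgeR adjusted p = 0.138). HIST1H2BG had 6.03 and 8.91 CPM against 10.5 and 13.2 CPM, a log2 fold change of -0.64 with SE 0.201 that was not called (edgeR adjusted p = 0.105). The fit without C1 called it (-0.99, adjusted p = 0.00616), and so did the fit without V0 (-0.79, adjusted p = 0.0206). HIST2H2BF had 7 and 9 fragments in C0 and C1 and 8 and 25 in V0 and V1. Scaled to the library these are 0.528 and 0.389 CPM against 0.942 and 2.23 CPM, so both DMSO libraries are above both clofarabine libraries and V1 is the highest. Its log2 fold change of -1.86 (edgeR adjusted p = 0.111) was -1.07 without V1. HIST1H2BJ and HIST1H2BF had log2 fold changes of 0.072 and 0.58, and neither was called.

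Of 4 tested H3 genes only HIST1H3D was called, and the class median was -0.20. The H3 gene of highest level per length was HIST1H3H, at 54.9 FPKM with DMSO, where HIST1H3D was at 22.7 FPKM. HIST1H3H had 16.0 and 14.6 CPM with clofarabine and 13.8 and 16.9 CPM with DMSO. Its log2 fold change was -0.015 with SE 0.15 (edgeR adjusted p = 0.986). HIST1H3B had 1.66 and 2.51 CPM against 1.88 and 1.78 CPM. These genes overlap between the groups, unlike HIST1H3D.

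Of 4 tested H4 genes only HIST1H4C was called, and the class median was -0.17. HIST1H4H had 4.14 and 5.71 CPM against 5.89 and 5.53 CPM, with a log2 fold change of -0.18. HIST1H4E had 2.04 and 1.90 CPM against 1.65 and 2.68 CPM, with a log2 fold change of -0.17. Both overlap between the groups. With DMSO HIST1H4C was the H4 gene of highest level per length (69.3 FPKM), and with clofarabine (20.7 FPKM) it lay under HIST1H4H (27.7 FPKM).

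Summing fragments over a class sets aside how they were divided among its genes, but not how they were divided between classes. Genes of different classes overlap or are split in HIST1H3D and HIST1H2AD, HIST1H2AM and HIST1H3J, and HIST1H2AL and HIST1H2BN. The sum of all members was 1597 and 1778 CPM with clofarabine and 1913 and 1943 CPM with DMSO, a log2 ratio of -0.19. Most of that sum is HIST1H1C and HIST1H2BK, and without these 2 genes it was 233.6 and 249.8 CPM against 322.9 and 319.9 CPM, a log2 ratio of -0.41. These ratios were given no test.

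By class, the H4 sum had the lowest log2 ratio at -0.92, with 11.8 and 14.6 CPM with clofarabine and 26.7 and 23.1 CPM with DMSO. Without HIST1H4C it was -0.32. The H3 sum had a ratio of -0.58 (23.1 and 24.6 CPM against 34.4 and 36.8 CPM), and without HIST1H3D it was -0.016, with groups that overlap. The H3 and H4 ratios thus rest largely on 1 gene each.

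The H2A sum had a ratio of -0.35 (96.0 and 106.5 CPM against 127.6 and 131.2 CPM). The H2B sum had a ratio of -0.22 (726.8 and 724.6 CPM against 840.7 and 846.0 CPM), and without HIST1H2BK it was -0.34. The H1 sum overlapped between the groups (ratio -0.12), and without HIST1H1C it was 4.07 and 4.07 CPM against 5.89 and 5.80 CPM, a ratio of -0.52.

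**Figure D3:**
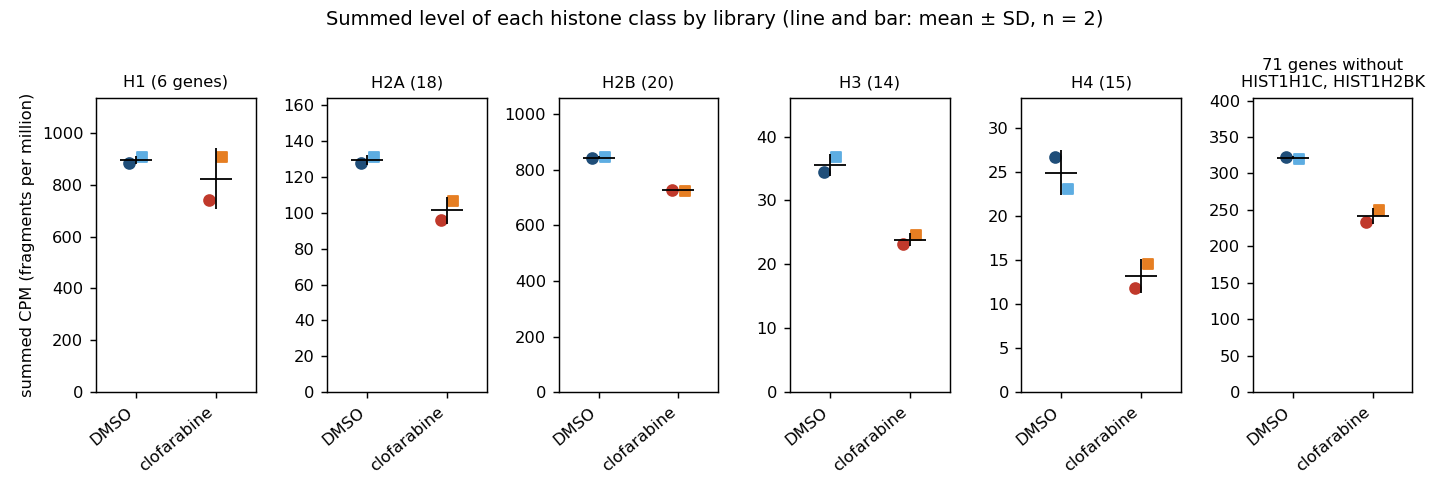
Summed level of each histone class in each library, and of the 71 genes without HIST1H1C and HIST1H2BK, as CPM, with a line and bar for the mean ± SD (n = 2) and points for the libraries (V0 dark blue circle, V1 light blue square, C0 red circle, C1 orange square). The groups do not overlap in H2A, H2B, H3, H4 and the 71 genes, and they overlap in H1, where C0 alone is low.

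By cluster, HIST1 held 29 of the tested members (3 lower, median -0.23), HIST2 held 4 (1 lower, median -0.37) and HIST3 held 2 (0 lower, median -0.55). The cluster sums had log2 ratios of -0.18, -0.50 and -0.28. The HIST2 sum was 36.2 and 36.3 CPM against 51.9 and 50.5 CPM, and most of it is HIST2H2BE. The difference between clusters was not tested.

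The list of members known to give polyadenylated messages, drawn from general knowledge, holds HIST1H1C, HIST1H2AC, HIST1H2BC, HIST1H2BD, HIST1H2BJ, HIST1H2BK, HIST2H2BE and HIST4H4. These 8 members held 93.0%, 92.7%, 91.6% and 91.3% of member fragments in C0, C1, V0 and V1. Of the 7 tested, 2 were called lower (HIST1H2AC and HIST2H2BE), with a median of -0.20 and a log2 ratio of sums of -0.17. Of the 28 tested members outside the list, 2 were called lower (HIST1H4C and HIST1H3D), with a median of -0.27, and the sum of all 65 outside it had a ratio of -0.46. Without HIST1H4C and HIST1H3D that ratio was -0.28. Annotated models do not split in the same way. A poly(A) signal lies near the 3′ end of a model of HIST1H3H, HIST1H4H and HIST3H2A, which are outside the list. On the list, HIST1H2AC, HIST1H2BC, HIST1H2BD, HIST1H2BJ and HIST2H2BE have one, and none was found for HIST1H1C, HIST1H2BK and HIST4H4. The only models of HIST1H1C and HIST1H2BK, of 642 and 381 bases, end at the stop codon. A signal beyond it could not be found there, so its absence says nothing about these 2 genes. Since members outside the list have a signal, the 2 sets are not polyadenylated against stem-loop-only genes. The form of the message that each fragment came from was not measured.

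Many H2A and H2B genes lie head to head and share the stretch between their starts. In the annotation 12 such pairs of members lie 124 to 331 bases apart, and in 8 both genes were tested. With all libraries, the log2 fold changes had the same sign in 4 of the 8: HIST1H2AC and HIST1H2BC (-0.46 and -0.24), HIST1H2AE and HIST1H2BG (-0.23 and -0.64), HIST1H2BK and HIST1H2AH (-0.20 and -0.62) and HIST3H2A and HIST3H2BB (-0.24 and -0.86). In the other 4 they did not, namely in HIST2H2BE and HIST2H2AC (-0.53 and 0.076), HIST1H2AM and HIST1H2BO (0.52 and -0.30), HIST1H2BJ and HIST1H2AG (0.072 and -0.61) and HIST1H2BL and HIST1H2AI (0.0038 and -0.84). This count rests on values near 0: the same sign was found in 7 of 8 pairs without V1, in 6 without C0 and in 7 with a trend on transcript length removed. No pair had both genes called. Levels per length within a pair could be far apart, as with HIST1H2BK, whose sequence is shared as given above, at 1100 FPKM and its partner HIST1H2AH at 4.33 FPKM with DMSO.

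**Figure D4:**
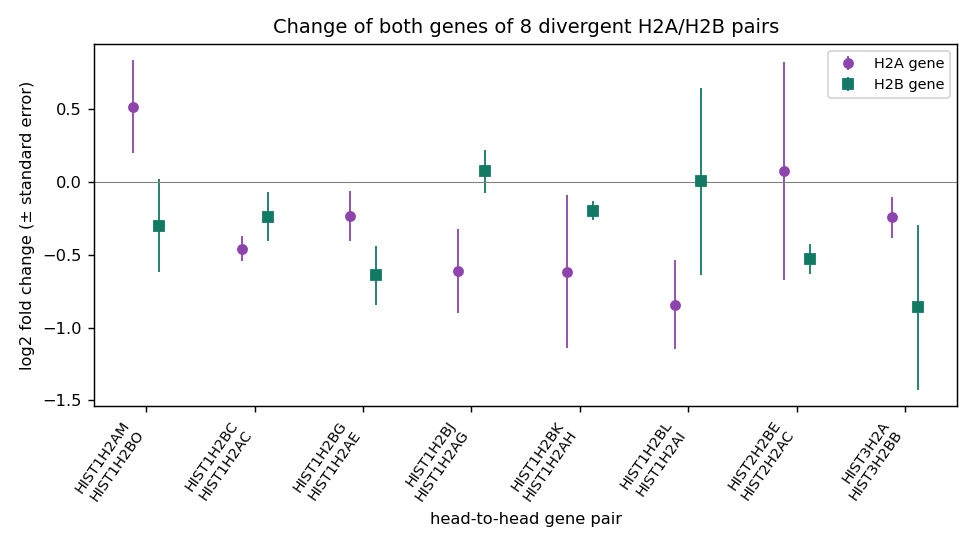
Log2 fold change of both genes of the 8 head-to-head H2A and H2B pairs in which both were tested, with standard errors as bars. The pair of HIST1H2AC and HIST1H2BC lies below 0 for both genes (-0.46 and -0.24), and 4 of the 8 pairs have genes on opposite sides of 0 with all libraries, against 1 of 8 without V1 or with the length trend removed.

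The 4 called members were also called in each of the 4 fits that left out a library. The log2 fold change of HIST1H4C then ran from -1.38 (without V0) to -1.996 (without V1), that of HIST1H3D from -1.49 to -1.87 and that of HIST1H2AC from -0.44 to -0.47. The number of members called lower was 7 without C1, 5 without C0, 5 without V0 and 4 without V1. HIST1H2BK joined without C0 (adjusted p = 0.0357), and HIST1H1C, HIST1H2BG and HIST3H2A joined without C1. A group with 1 library is assumed to vary like the other.

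**Figure D5:**
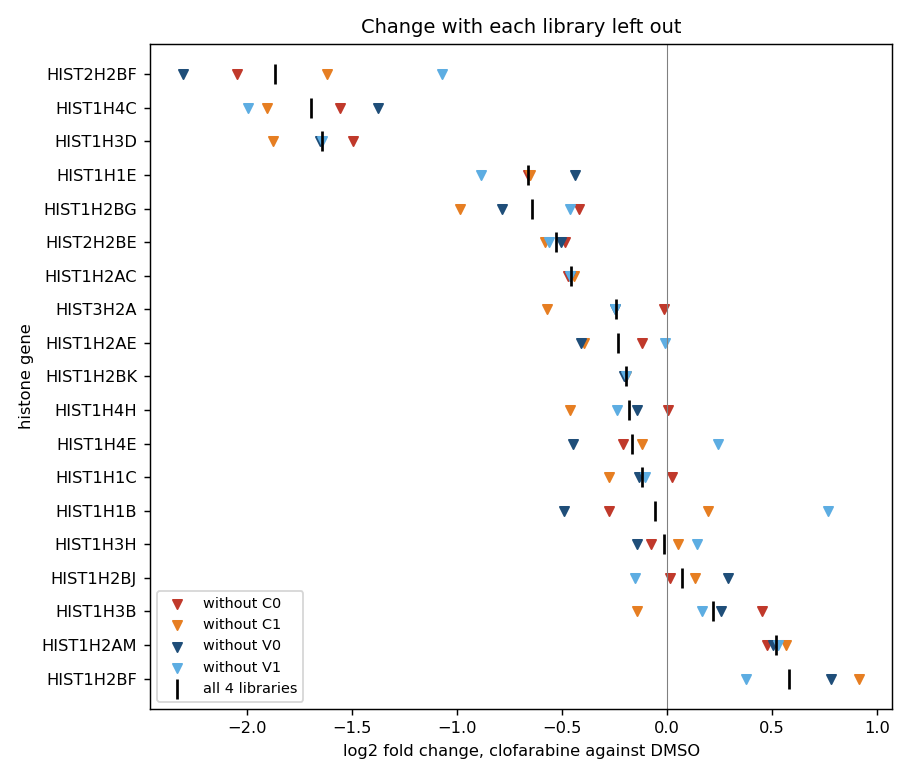
Log2 fold change of 19 named members with all 4 libraries (black bar) and with each library left out (triangles). HIST1H4C, HIST1H3D, HIST2H2BE and HIST1H2AC stay below 0 in every fit, and HIST1H1C, HIST1H4H, HIST1H4E, HIST1H1B, HIST1H3H, HIST1H2BJ and HIST1H3B lie on both sides of 0.

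Histone messages are short, and 34 of the 35 tested members were among the 1177 genes of shortest transcript, whose median log2 fold change was 0.090. Between the clofarabine libraries, the median log2 difference of C1 from C0 was 0.14 for those 1177 genes and 0.060 for the members. With a smooth trend on transcript length removed from each library, the members' median was -0.42, and 10 were called lower in place of 4: the 4 above and HIST1H1C, HIST1H2AI, HIST1H2BG, HIST1H2BK, HIST2H2BF and HIST3H2A. No member was called higher with or without the trend.

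The genes that make, process and degrade histone messages were examined as a list of 48 genes, of which 45 were in the table and tested. In it 6 rose and none fell, with a median of 0.082. For this list and those below, the shares over all genes tested were 1.54% called higher and 1.03% called lower. SLBP, which binds the stem-loop, had 276.7 and 270.5 CPM with clofarabine and 213.5 and 212.2 CPM with DMSO and rose by 0.36 on the log2 scale (SE 0.0644, edgeR adjusted p = 0.00196, and 0.062 without V1). CCNE2 and CCNE1, the cyclins E that activate CDK2 toward NPAT, rose by 1.19 (adjusted p = 5.56e-08) and 0.49 (adjusted p = 0.00376). The other 3 that rose are the Sm proteins SNRPE, SNRPF and SNRPG, which occur in the U7 particle that cleaves histone messages and also in the spliceosome. SNRPE, SNRPF and SNRPG rose by 0.33, 0.37 and 0.33 (edgeR adjusted p = 0.00724, 0.0182 and 0.0182). NPAT had 39.2 and 34.0 CPM against 35.8 and 32.5 CPM, with groups that overlap and a log2 fold change of 0.096 (edgeR adjusted p = 0.77). Without V1 only 2 of the 45 rose, against 6 with all libraries.

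Of 18 genes listed as replication-independent histone variants, 8 were tested and 3 fell with none rising, at a median of -0.0084. Whether the message of each, H2AFX among them, is free of S-phase control was not tested. H2AFZ rose with the length trend removed (0.19, edgeR adjusted p = 0.0361). With all libraries H2AFZ was at 0.25 and not called, and it was at 0.375 without C0 and 0.11 without C1. H3F3A was unstable, at 12.9 and 0 CPM in C0 and C1 and 0 and 4.37 CPM in V0 and V1. Its log2 fold change was 1.30 with all libraries and not called, -8.07 without C0 and 9.47 without V1. The 3 that fell with all libraries are CENPA, the centromeric H3 variant (-1.45, edgeR adjusted p = 6.24e-08), the linker histone H1FX (-0.73, adjusted p = 1.59e-05) and H2AFX (-0.35, adjusted p = 0.00664, and 0.254 without V1). Of 19 histone chaperones, 3 rose (HAT1, CHAF1A and CHAF1B) and 1 fell, the CENPA chaperone HJURP (-0.76, adjusted p = 1.59e-05), with 1 rising without V0 and none without V1. Of 22 S-phase and cell cycle genes, 7 rose, among them CDC6 and RRM2, and the mitotic cyclin CCNB1 fell by 0.66 (edgeR adjusted p = 8.46e-07), with 11 rising without C0, 3 without V0 and 3 without V1. CCNE2, given above with the processing genes, is also on this list and among the 7 that rose. It thus counts in both lists, here and below. Whether a shift in cell cycle phase has a part in the values of the histone members was not tested.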

How the data were processed

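RNA from 4 K562 samples was sequenced. Per the submitters' processing notes the authors used cutadapt 1.5, TopHat2 2.0.13 and Cuffdiff 2.2.1 with hg19. The sources used here name neither the gene annotation nor whether counting used strand, so reads of overlapping genes cannot be told apart. The deposited table, per the file headers, holds the authors' estimated counts of fragments per gene and library and their FPKM values, which account for transcript length and depth. A further column of scaled fragments, a signal made by the authors from the counts, served here only to derive transcript length from its ratio to FPKM. No member has a failed status. Library numbers 0 and 1 of the table could not be tied to the replicate numbers of the labels.

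Estimated counts were rounded, which changed 431 to 483 values per library. All 23615 genes entered filterByExpr (minimum count 10), which left 11761. Libraries were scaled by TMM (0.968 to 1.015), and groups were compared with edgeR 4.0.16 (R 4.3.3, quasi-likelihood test, Benjamini-Hochberg over all genes tested, called below 0.05). Standard errors were derived from the log2 fold change and the F statistic. The common biological coefficient of variation was 6.01%. The counts of libraries differed beyond sampling noise, so none was combined. The chi-square per degree of freedom was 6.55 between the clofarabine libraries and 2.73 between the DMSO libraries. Across the groups it was 4.08 between C0 and V0. This value also grows with the number of fragments, which differs among the libraries.

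Named members are those called, the 3 of highest mean CPM and that of smallest p in each class, those called in a fit without 1 library, and the 2 of largest and the 2 of smallest log2 fold change. HIST1H1D, HIST1H2AI, SNRPE, SNRPF, SNRPG and the genes of head-to-head pairs were named after their values were seen. From each other list up to 3 called genes per direction are named by smallest p, with SLBP and NPAT. HBE1, MS4A1, KRT5, KRT19, H2AFZ and H3F3A were named outside this rule. The members and lists were chosen with earlier results of these data known. Sequences come from GENCODE release 29 and RefSeq (GRCh38.p14), another build than hg19, and no coordinate was converted. The fitting code was tested on simulated data. Alternatives were other scalings, filters, tools (DESeq2 1.42.0, limma 3.58.1), thresholds, a length trend, thinning, a replicate block and leaving out each library. The sum of HIST1H3D with HIST1H2AD and the sum without the 2 most abundant members were added after seeing the data.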

Additional observations from a re-analysis of the deposited data

How the results depend on the processing

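With 4 libraries, only members with many fragments or large differences can be called. The number of members called lower, 4 in the main test, was 2 with DESeq2, which gives no adjusted p for 30 of the 35 members, 10 with the length trend removed, 7 with the replicate block and 4 to 7 when a library was left out. No alternative called a member higher at 0.05. The median of -0.24 was -0.30 with no filter, -0.42 with the length trend removed, and -0.28 to -0.40 with a library left out. The log2 ratio of summed levels, -0.19, was -0.29 with the length trend removed, -0.41 without the 2 most abundant members, and -0.12 to -0.28 with a library left out. The cause of these shifts was not tested. Of 285 values of the 19 named members under alternatives, 253 kept their direction and call, 16 gained a call, 1 lost it and 15 changed direction. Values without an adjusted p are not in this count. Among these are HIST1H3D and HIST1H4C with DESeq2, at log2 fold changes of -1.66 and -1.72. DESeq2 therefore called neither, and its 2 called members were HIST1H2AC and HIST2H2BE. HIST1H1B, -0.057 in the main test, was 0.067 on log2(FPKM + 1), 0.14 on log2(FPKM + 0.1) and -0.49 to 0.77 with a library left out. HIST1H3H, -0.015, was 0.0065 and 0.0067 on these scales, 0.051 with libraries thinned to the shallowest, and -0.14 to 0.14 with a library left out. HIST1H2BJ, 0.072, was -0.095 with the length trend removed and -0.15 to 0.29 with a library left out. With a library left out, HIST1H1C ran from -0.28 to 0.023, HIST1H3B from -0.14 to 0.45, HIST1H4E from -0.45 to 0.24 and HIST1H4H from -0.46 to 0.0049. HIST1H2BF had no value without C0, where it did not pass the filter. Over all genes, 181 rose and 121 fell in the main test. The counts were 96 and 75 with DESeq2, 19 and 37 on log2(FPKM + 1), 27 and 45 on log2(FPKM + 0.1), 110 and 99 with upper-quartile scaling, 305 and 214 with the length trend removed, 298 and 180 with no filter, 170 and 200 with library size only, 494 and 302 with the replicate block, 454 and 182 without C0, and 57 and 73 without V1. On log2(FPKM + 1), 1 histone processing gene, 0 chaperones and 3 S-phase genes rose, against 6, 3 and 7 in the main test, and with the length trend removed 11 S-phase genes rose. Of the K562 markers, 2 of which fell in the main test, 4 fell with the length trend removed, 1 with DESeq2 and 0 on log2(FPKM + 1). Same-numbered libraries did not deviate together (correlation -0.0038), so the block, under which 7 members were called lower, pairs libraries only by number.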

Other observations

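Members under the filter did not all lie on the same side. HIST1H2AL, an H2A gene with 45 fragments in all, had 18 and 15 fragments in C0 and C1 and 5 and 7 in V0 and V1, which is 1.36 and 0.649 CPM with clofarabine and 0.589 and 0.625 CPM with DMSO. The H4 gene HIST1H4B had 9 and 6 fragments in C0 and C1 and 5 and 19 in V0 and V1, with V1 alone high. HIST1H4K had 1 and 3 fragments in C0 and C1 and 4 and 4 in V0 and V1, and all of its 50-base words occur in HIST1H4J. These 3 were named after their values were seen and were given no test.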
